A study of Mus musculus with 2 samples.

Results

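The genes described here are 10 mouse CC chemokines, Ccl2, Ccl3, Ccl4, Ccl5, Ccl6, Ccl7, Ccl9, Ccl17, Ccl22 and Ccl24, out of 20145 genes with a probe on the array. They were found through the RefSeq accession of each probe, and each gene had 1 probe. Of these probes 9 had a single spot, and that of Ccl2 was printed 10 times. Bone marrow of C57BL/6 mice was cultured for 4 days in medium with 5% serum and GM-CSF, a growth factor for granulocytes and macrophages, at 40 ng/ml, 1 culture with 40 ng/ml IL-6 added (GM-CSF + IL-6) and 1 without it (GM-CSF ONLY). Both cultures carried GM-CSF, so the comparison shows what differed when IL-6, a cytokine of inflammation whose receptor activates STAT3, was present as well. The labels call the product myeloid-derived suppressor cells, immature myeloid cells that restrain T cells. Total RNA of each culture was measured on 1 Agilent array, so differences could not be checked against replicates and were not tested.

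Chemokines are small secreted proteins that steer leukocytes along gradients through receptors on the cell surface. CC chemokines carry a pair of adjacent cysteines near the start of the mature protein, and many share receptors, so a receptor often has several ligands and a ligand several receptors. Myeloid cells both make them and follow them, and monocytes leave the marrow through the receptor CCR2.

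Ccl5 was lower and Ccl24 was higher in the culture with IL-6, and the other 8 genes differed by less than 1.2-fold. Ccl5, an attractant of T cells and monocytes that is also induced by interferon, was 1.38-fold lower with IL-6. Ccl24, an eosinophil attractant, was 1.33-fold higher with IL-6. All 10 probes were well above background on both arrays and none was saturated. Of the 10 genes 6 were higher and 4 lower with IL-6, against 43.8% higher and 56.2% lower among the 13843 genes measured on both arrays. The median log2 ratio was 0.05 for the 10 genes and -0.02 for all measured genes. At least 1.2-fold higher was 1 of the 10, against 6.36% of all measured genes, and at least 1.2-fold lower was 1 of the 10, against 5.97%. None of the 10 reached 2-fold, which 0.383% of all measured genes did. All 10 were brighter than the 75th percentile of the array. Of the 8049 measured genes that were, 1.89% passed 1.2-fold in the higher direction and 2.42% in the lower, so a difference of this size was less common at the brightness of these probes than over all genes. In RNA of a whole culture, fewer cells of a type and less RNA per cell cannot be told apart.

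Signals below are intensities scaled so that both arrays have the same 75th percentile. The log2 ratio is GM-CSF + IL-6 minus GM-CSF ONLY. Its error is a technical SD, taken from probes printed several times, which covers spot error and not the culture or the labelling. The SD was set by brightness between scaled signals of 53.2 and 12845. Brighter probes, such as those of Ccl6 and Ccl9, took the SD at 12845. Dimmer ones, such as those of Ccr4 and Ackr1, took the SD at 53.2. Signals of different probes are not compared, because each probe has its own binding strength.

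**Figure D1:**
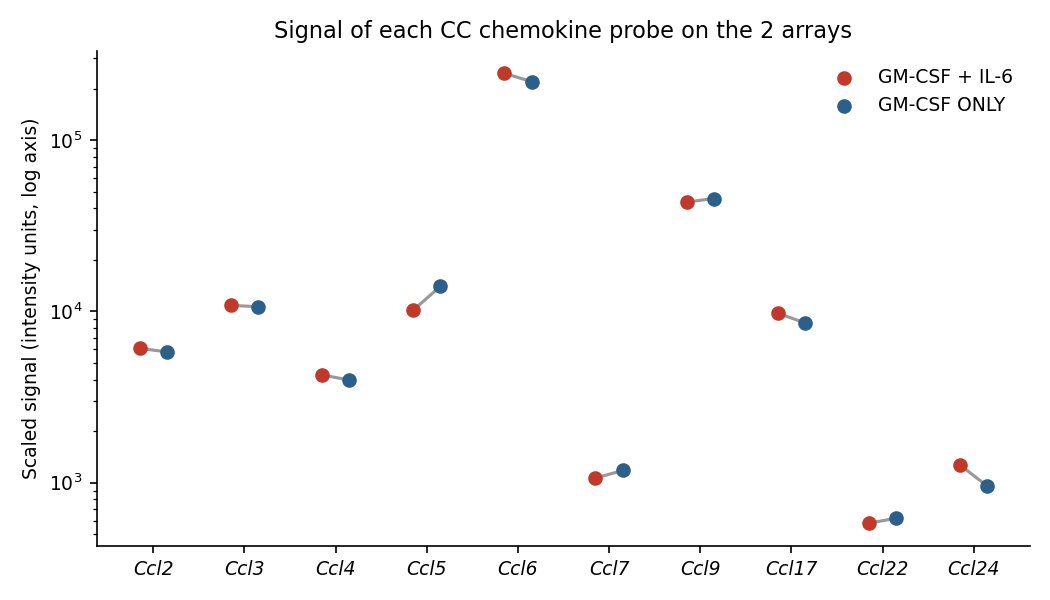
Scaled signal (intensity units, log axis) of the probe of each CC chemokine, GM-CSF + IL-6 in red at the left and GM-CSF ONLY in blue at the right of each pair. The lines of Ccl5 (10134 and 14033) and Ccl24 (1269 and 954.5) are the steep ones, and the other 8 are close to level.

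Among the ligands of CCR2, the receptor that draws monocytes out of the marrow, Ccl2 had a scaled signal of 6082 with GM-CSF + IL-6 and 5808 with GM-CSF ONLY, a log2 ratio of 0.07 ± 0.02. The probe was printed 10 times, which gave a view of the spot error in this gene itself. On the GM-CSF + IL-6 array the 9 spots kept on both arrays ran from 5908 to 6207 with a median of 6091, and on the GM-CSF ONLY array they ran from 5503 to 6015 with a median of 5854. The spots of both arrays overlapped. Compared at the same position, the GM-CSF + IL-6 spot was the brighter one in 9 of 9, with log2 ratios from 0.04 to 0.12 and an SD of 0.03. The one spot left out, marked as an outlier on the GM-CSF + IL-6 array, lay in the outermost column and had a log2 ratio of -0.07. The spots are repeats of 1 hybridisation and say nothing of the spread between cultures.

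**Figure D2:**
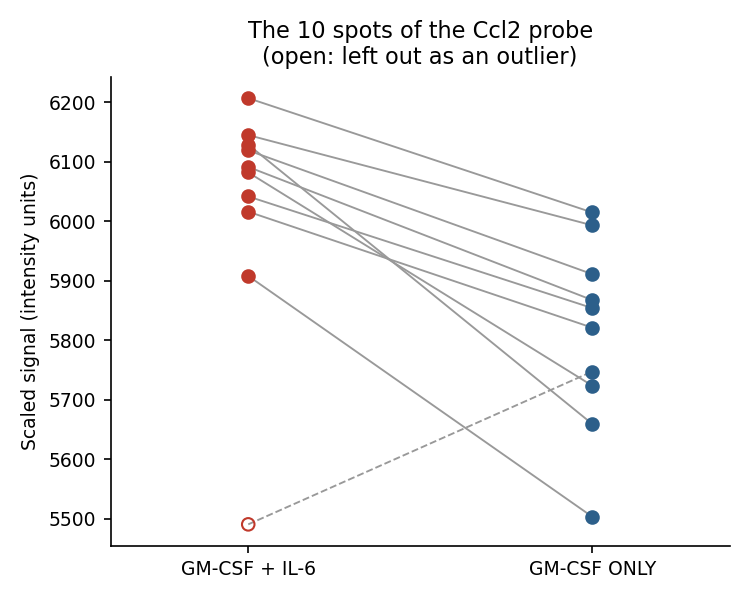
Scaled signal (intensity units) of the 10 spots of the Ccl2 probe on the GM-CSF + IL-6 array (red, left) and the GM-CSF ONLY array (blue, right), with a line joining spots at the same position. The 9 solid lines all fall to the right, and the dashed line is the outlier spot, which is drawn open.

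Ccl7, the gene next to Ccl2 on chromosome 11 and another ligand of CCR2, had 1064 with GM-CSF + IL-6 and 1179 with GM-CSF ONLY, a log2 ratio of -0.15 ± 0.06. Ccl2 and Ccl7 thus lay on opposite sides of 0, 0.21 ± 0.06 apart on the log2 scale. The spread over genes puts that gap in scale: the log2 ratios of the 8049 bright genes had an SD of 0.13, which gives an SD of 0.18 for the gap between 2 such genes taken as independent.

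Ccl3, Ccl4 and Ccl5, attractants of monocytes, macrophages and activated T cells, did not move together. Ccl3 had 10845 with GM-CSF + IL-6 and 10654 with GM-CSF ONLY, a log2 ratio of 0.03 ± 0.05. Ccl4, its neighbour on chromosome 11, had 4262 with GM-CSF + IL-6 and 3972 with GM-CSF ONLY, a log2 ratio of 0.10 ± 0.05. The ratios of Ccl3 and Ccl4, genes often induced together in activated macrophages, were 0.08 ± 0.07 apart, within 2 technical SDs.

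Ccl5 had 10134 with GM-CSF + IL-6 and 14033 with GM-CSF ONLY, a log2 ratio of -0.47 ± 0.05. In units of the technical SD this was -10.4, and 15 of the 8049 bright genes (0.186%) had a ratio as low. The Ccl5 ratio was 0.50 ± 0.06 below that of Ccl3 and 0.57 ± 0.07 below that of Ccl4, although the 3 genes lie in 1 cluster on chromosome 11 with Ccl9 and Ccl6 as the coding genes between Ccl5 and Ccl3. The Ccl5 spot lay in row 18 of the array, and the 47 other bright spots in the same block of 16 rows and 12 columns had log2 ratios from -0.18 to 0.28 around a median of -0.02. The Ccl5 value was outside the range of the spots around it. With so few bright genes as low, that was likely in advance, and it does not check the single Ccl5 spot itself.

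Ccl6 and Ccl9 are CCR1 ligands of rodents that macrophages and other myeloid cells make in large amounts. The genes lie next to each other on chromosome 11. Ccl6 had 245720 with GM-CSF + IL-6 and 219625 with GM-CSF ONLY, a log2 ratio of 0.16 ± 0.04, and 0.11 where arrays were quantile-normalized. Ccl9 had 43498 with GM-CSF + IL-6 and 45590 with GM-CSF ONLY, a log2 ratio of -0.07 ± 0.04, within 2 technical SDs of 0. The ratios of the pair were 0.23 ± 0.06 apart, beside the SD of 0.18 for the gap between 2 bright genes taken as independent.

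Promoters from RefSeq (GRCm38.p6, 250 bases before to 50 after the annotated start) were given for 5 of the 10 genes, Ccl3, Ccl6, Ccl9, Ccl17 and Ccl22. The pair Ccl6 and Ccl9 is shown because these neighbouring genes, whose promoters share a stretch, had ratios on opposite sides of 0. That of Ccl9 was within 2 technical SDs of 0. Their best local alignment, with the capitals marking runs of at least 8 identical bases, had 58 identical bases in 74 columns. Relative to the start it ran from -59 to 15 in Ccl6 and from -18 to 49 in Ccl9. It crossed the start of each gene, but the shared runs lie at different distances from the start. Of the 9 other pairs among the 5 promoters, the one with the next best score, Ccl9 and Ccl17, had 14 identical bases in 16 columns. The promoter of Ccl6 is at chr11:83593038-83593337 on the minus strand and that of Ccl9 at chr11:83578587-83578886 on the minus strand, both printed from 5′ to 3′ of the gene.
Ccl6: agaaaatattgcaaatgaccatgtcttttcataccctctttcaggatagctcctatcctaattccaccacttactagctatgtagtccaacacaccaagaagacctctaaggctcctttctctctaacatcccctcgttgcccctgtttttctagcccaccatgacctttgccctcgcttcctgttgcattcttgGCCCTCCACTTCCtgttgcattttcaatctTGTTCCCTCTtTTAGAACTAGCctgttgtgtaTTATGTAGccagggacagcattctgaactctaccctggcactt
Ccl9: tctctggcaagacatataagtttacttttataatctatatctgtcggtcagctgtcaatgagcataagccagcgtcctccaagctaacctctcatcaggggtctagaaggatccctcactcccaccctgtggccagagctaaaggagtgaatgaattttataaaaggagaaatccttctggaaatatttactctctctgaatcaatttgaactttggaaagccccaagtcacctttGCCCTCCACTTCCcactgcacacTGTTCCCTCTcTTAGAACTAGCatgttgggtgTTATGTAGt

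The ligands of CCR4, Ccl17 and Ccl22, are made by dendritic cells and macrophages and attract regulatory and type 2 helper T cells. Ccl17 had 9761 with GM-CSF + IL-6 and 8570 with GM-CSF ONLY, a log2 ratio of 0.19 ± 0.05, which 4.76% of the bright genes matched or passed. Ccl22 had 580.5 with GM-CSF + IL-6 and 620.3 with GM-CSF ONLY, a log2 ratio of -0.10 ± 0.08, within 2 technical SDs of 0. The ratios of this pair, which share chromosome 8 with 1 coding gene, Cx3cl1, between them, were 0.28 ± 0.09 apart. The SD for the gap between 2 bright genes taken as independent was 0.18.

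The promoters of Ccl17 and Ccl22 are shown because the genes have the same receptor and are near neighbours. The capitals mark matches, on either strand, to 3 motifs. The first is TTC and GAA with 3 bases of any kind between, bound by STAT factors, the second is TTC and GAA with 4 bases between, preferred by STAT6, and the third is GGGA and CC with 4 bases between, of NF-kB. The promoter of Ccl17 held 1 match to the first, 99 bases before the start, and 1 to the second, 154 bases before it, and these did not overlap. The promoter of Ccl22 held 1 match to the third, 131 bases before the start. Of 32851 promoters of this length, 8.30% held the first motif, 6.95% the second and 20.7% the third, and the promoters of Ccl3, Ccl6 and Ccl9 held none. A match describes letters and is not a measured binding site. The promoter of Ccl17 is at chr8:94810203-94810502 and that of Ccl22 at chr8:94745434-94745733, both on the plus strand.
Ccl17: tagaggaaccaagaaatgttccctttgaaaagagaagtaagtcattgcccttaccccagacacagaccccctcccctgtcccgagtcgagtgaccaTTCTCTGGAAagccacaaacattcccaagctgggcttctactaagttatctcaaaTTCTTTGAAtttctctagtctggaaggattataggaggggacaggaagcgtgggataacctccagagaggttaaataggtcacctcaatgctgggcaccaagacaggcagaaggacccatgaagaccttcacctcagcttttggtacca
Ccl22: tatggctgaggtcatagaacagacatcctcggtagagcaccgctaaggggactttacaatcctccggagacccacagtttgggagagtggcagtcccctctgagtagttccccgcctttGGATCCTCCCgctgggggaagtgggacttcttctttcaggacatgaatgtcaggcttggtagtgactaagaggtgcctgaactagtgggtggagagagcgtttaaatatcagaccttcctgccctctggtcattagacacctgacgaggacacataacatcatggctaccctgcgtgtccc

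Ccl24, a ligand of the eosinophil receptor CCR3, had 1269 with GM-CSF + IL-6 and 954.5 with GM-CSF ONLY, a log2 ratio of 0.41 ± 0.06. This was 6.64 technical SDs above 0, and 23 of the 8049 bright genes (0.286%) had a ratio as high. The 44 other bright spots in the same block of the array had log2 ratios from -0.33 to 0.23 around a median of -0.01, below the Ccl24 value throughout. As for Ccl5, this was likely in advance and does not check the single Ccl24 spot. Between Ccl24 and Ccl5 the log2 ratios were 0.88 ± 0.08 apart.

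In order of log2 ratio, from lowest to highest, the genes were Ccl5, Ccl7, Ccl22, Ccl9, Ccl3, Ccl2, Ccl4, Ccl6, Ccl17 and Ccl24. Only Ccl5 and Ccl7 at the low end (0.32 ± 0.08 apart) and Ccl17 and Ccl24 at the high end (0.22 ± 0.08 apart) were neighbours in this order that differed by more than 2 technical SDs. Of the 10 genes 3 (Ccl3, Ccl9 and Ccl22) lay within 2 technical SDs of 0. Each of the 10 kept its side of 0 under the 10 other ways of processing the arrays that were run on it. Some of these ways, such as a looser background call, could not move a gene whose only probe is bright.

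**Figure D3:**
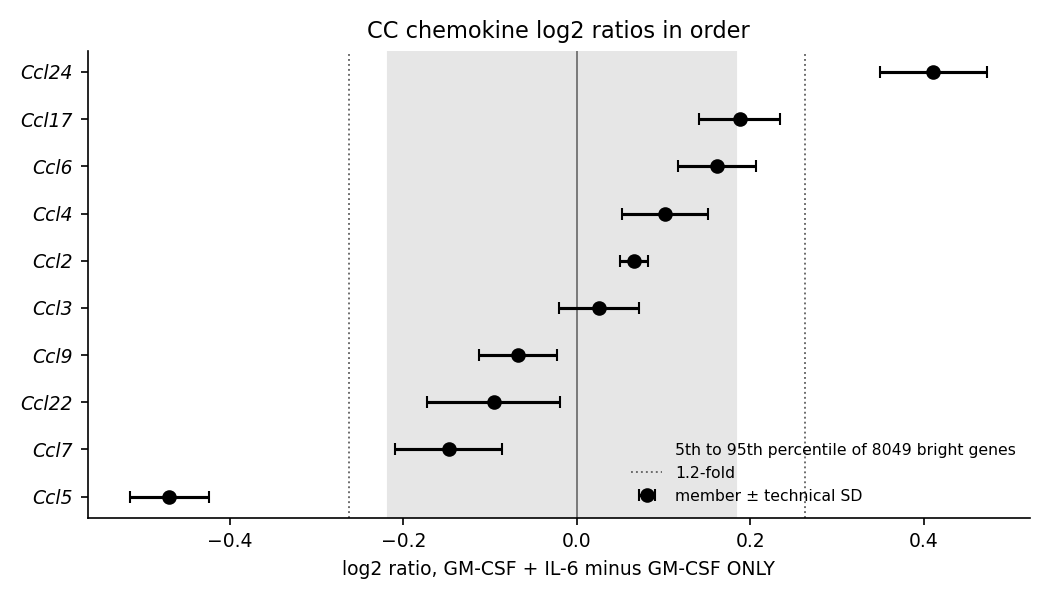
Log2 ratio of each CC chemokine, GM-CSF + IL-6 minus GM-CSF ONLY, with its technical SD as the error bar. Ccl24 (0.41) and Ccl5 (-0.47) lie past the dotted 1.2-fold lines, Ccl17 (0.19) lies at the edge of the grey band from the 5th to the 95th percentile of bright genes (-0.22 to 0.18), and the other 7 lie inside it.

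Other CC chemokines of the mouse were measured less completely. Of 10 with a probe, 5 were well above background on both arrays, 2 higher and 3 lower with IL-6, against 56.2% lower among all measured genes. Their median was -0.03 on the log2 scale. Ccl8 had 404.4 with GM-CSF + IL-6 and 339.5 with GM-CSF ONLY, a log2 ratio of 0.25 ± 0.09, and Ccl12, a mouse ligand of CCR2, had -0.16 ± 0.16. Ccl19, a ligand of CCR7, had -0.10 on one probe and 0.23 on another. Ccl25 had -0.03 on one probe and 0.67 ± 0.24 on another close to background, and Ccl27a had 0.22, 0.09 and 0.04 on its 3 probes. With the median over the probes of each gene in place of the brightest probe, the median of the 5 genes turned to 0.09, so their direction depends on the choice of probe. Ccl1, Ccl11, Ccl20, Ccl26 and Ccl28 were not well above background on either array.

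Among the receptor genes, Ccr1 and, by a narrow margin, Ccr7 were at least 1.2-fold lower with IL-6. Ackr1, close to background, was at least 1.2-fold higher. Of 12 measured, 8 were lower and 4 higher, a share near the 56.2% of all measured genes that were lower. Their median log2 ratio was -0.15, and -0.05 once the background had been corrected by normexp, against -0.02 over all measured genes. At least 1.2-fold lower were 2 of the 12, against 5.97% of all measured genes, and at least 1.2-fold higher was 1 of the 12, against 6.36%. Ccr1, the receptor shared by Ccl3, Ccl5, Ccl6, Ccl7 and Ccl9, had 504.6 with GM-CSF + IL-6 and 643.0 with GM-CSF ONLY, a log2 ratio of -0.35 ± 0.08. Ccr7, which leads dendritic cells to lymph nodes, had -0.27 ± 0.04. At 1.203-fold lower it passed the 1.2-fold threshold by less than its technical SD.

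Ccr3, the receptor of Ccl24, had 1307 with GM-CSF + IL-6 and 1426 with GM-CSF ONLY, a log2 ratio of -0.13 ± 0.06, and so lay on the other side of 0 from its ligand. Ccr2 had a log2 ratio of -0.07 ± 0.05. Ccr4 was close to background at 17.8 with GM-CSF + IL-6 and 21.3 with GM-CSF ONLY, a log2 ratio of -0.25 ± 0.24.

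Among the 4 higher receptor genes, Ackr1, a decoy receptor of erythroid and endothelial cells, was close to background. It had 31.2 with GM-CSF + IL-6 and 20.1 with GM-CSF ONLY, a log2 ratio of 0.64 ± 0.24. The probes of Ccr8 disagreed: one had a log2 ratio of 0.09 ± 0.16, while the other, in the outermost row of the array, was at least 2.90-fold higher with GM-CSF + IL-6 and not well above background with GM-CSF ONLY.

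**Figure D4:**
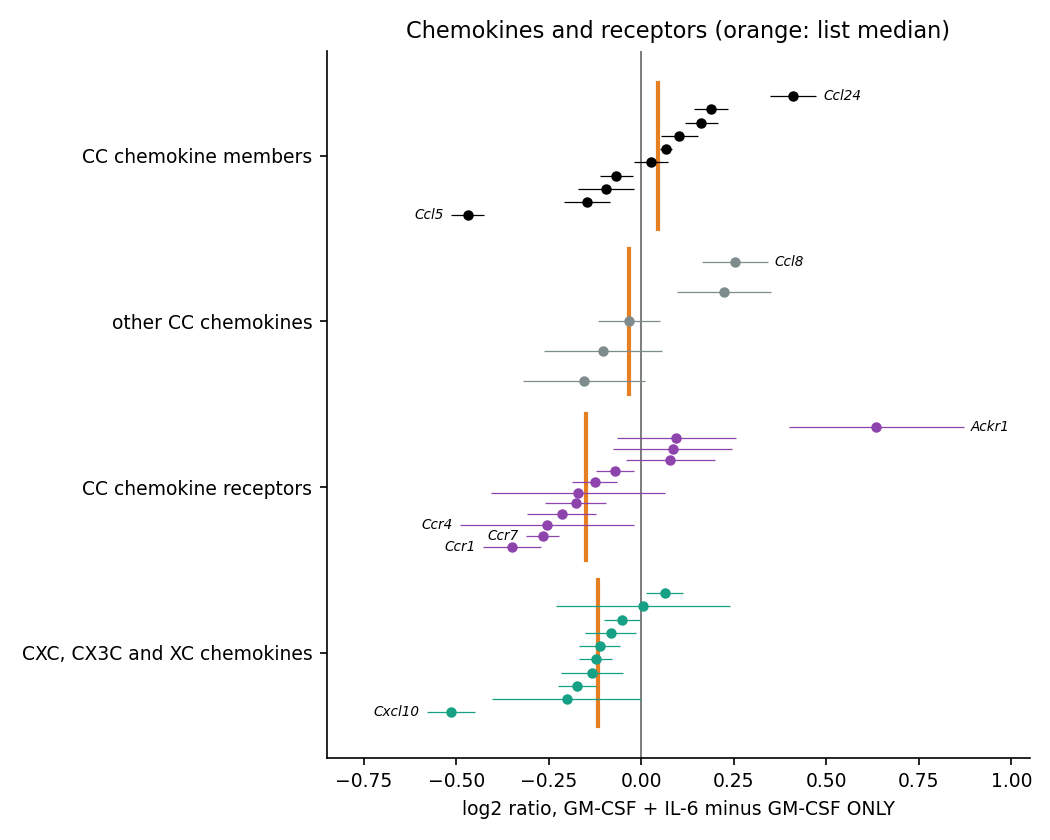
Log2 ratio, GM-CSF + IL-6 minus GM-CSF ONLY, of each measured gene with its technical SD, for the 10 CC chemokines, other CC chemokines, CC chemokine receptors, and CXC, CX3C and XC chemokines, with the list median as an orange line and names beside genes past 0.25 in either direction. The medians are 0.05, -0.03 (0.09 with the median over probes), -0.15 and -0.12.

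Other lists hold genes that share known inducers with these chemokines. They were chosen with earlier results of these data known and support nothing about the chemokines. Beside the counts below, 56.2% of all measured genes were lower with IL-6. NF-kB response genes, a group to which Ccl2, Ccl3, Ccl4 and Ccl5 also respond, were lower in 15 of 20, with a median log2 ratio of -0.10. Tnf stood on the other side at 0.48 ± 0.02. Genes of the IL-4 and STAT6 response, which includes Ccl17, Ccl22 and Ccl24, were lower in 11 of 16, with a median of -0.10 (-0.04 after normexp). Within it Retnla, an alternative activation gene, had -0.46 ± 0.06 and Fn1 -0.32 ± 0.04, while the mannose receptor gene Mrc1 had 0.27 ± 0.08, so Ccl24 and Retnla lay on opposite sides of 0. Interferon-stimulated genes, which respond to a stimulus that also induces Ccl5, were lower in 22 of 22, with a median of -0.31.

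Markers of monocytes and macrophages, which make and follow these chemokines, were mostly lower with IL-6, and the part of cell makeup in the chemokine results was not tested. Among all measured genes 56.2% were lower and 43.8% higher with IL-6, which stands beside each marker list here and below. Macrophage markers were lower with IL-6 in 11 of 13 measured, at a median of -0.17 on the log2 scale (-0.12 after normexp). Their summed scaled signal was 93708 with GM-CSF + IL-6 and 107532 with GM-CSF ONLY. Most of this sum came from Csf1r, at 57302 with GM-CSF + IL-6 and 68232 with GM-CSF ONLY. Csf1r is counted in the monocyte list as well, and its probes had -0.25, -0.20 and 0.26. Cd163 was not well above background on either array. At least 1.2-fold lower were 4 of the 13, against 5.97% of all measured genes. Among them Apoe, a lipid carrier gene, had -0.40 ± 0.02. Vcam1, an adhesion molecule gene, had -0.36 ± 0.06 (-0.11 on its other probe). Msr1, also among them, had -0.28 ± 0.08, and -0.19 on its other probe, short of 1.2-fold. Monocyte markers were lower in 11 of 13, with a median of -0.12 (-0.14 after normexp). Their sum was 253482 with GM-CSF + IL-6 and 277187 with GM-CSF ONLY. At least 1.2-fold lower were 3 of the 13, against 5.97% of all measured genes. Cx3cr1, the fractalkine receptor gene, had 167.9 with GM-CSF + IL-6 and 251.4 with GM-CSF ONLY, a log2 ratio of -0.58 ± 0.13 and larger in size than that of any of the 10 chemokines. Ms4a6c had -0.43 ± 0.06.

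For T and NK cells, which make Ccl5, 8 of 13 markers were lower and 5 higher, with a median of -0.04, and the sum was 19739 with GM-CSF + IL-6 and 18823 with GM-CSF ONLY. The sum weights bright probes and here lies on the other side from the median: most of it came from Cd4, at 6106 with GM-CSF + IL-6 and 5451 with GM-CSF ONLY, and Nkg7, at 7766 with GM-CSF + IL-6 and 7049 with GM-CSF ONLY. Cd3d (-0.22 ± 0.15), Cd2 (-0.21 ± 0.07) and Il7r (-0.21 ± 0.06) were on the lower side. The NK markers Ncr1 and Klrb1c were not well above background on either array. Eosinophil markers, 5 lower and 4 higher, had a median of -0.01 (0.01 after normexp) and a sum of 110647 with GM-CSF + IL-6 and 100499 with GM-CSF ONLY, with Prg2, a granule protein gene that makes up most of the sum, at 0.17 ± 0.04 and Alox15 at -0.29 ± 0.09.

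Dendritic cell markers, 10 lower and 7 higher, had a median of -0.05 and a sum of 522757 with GM-CSF + IL-6 and 511353 with GM-CSF ONLY, with Xcr1 not well above background on either array. Zbtb46, close to background, had -0.34 ± 0.22, while the brighter Fscn1 had 0.21 ± 0.07 and Cd74, a large part of the sum, 0.19 ± 0.04. All 15 neutrophil markers with a probe were measured, 8 higher and 7 lower, with a median of 0.02 (-0.01 after normexp) and a sum of 1971688 with GM-CSF + IL-6 and 1894865 with GM-CSF ONLY. Ly6g and Ly6c2, surface markers by which suppressor cells are told apart, were not analysed here.

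**Figure D5:**
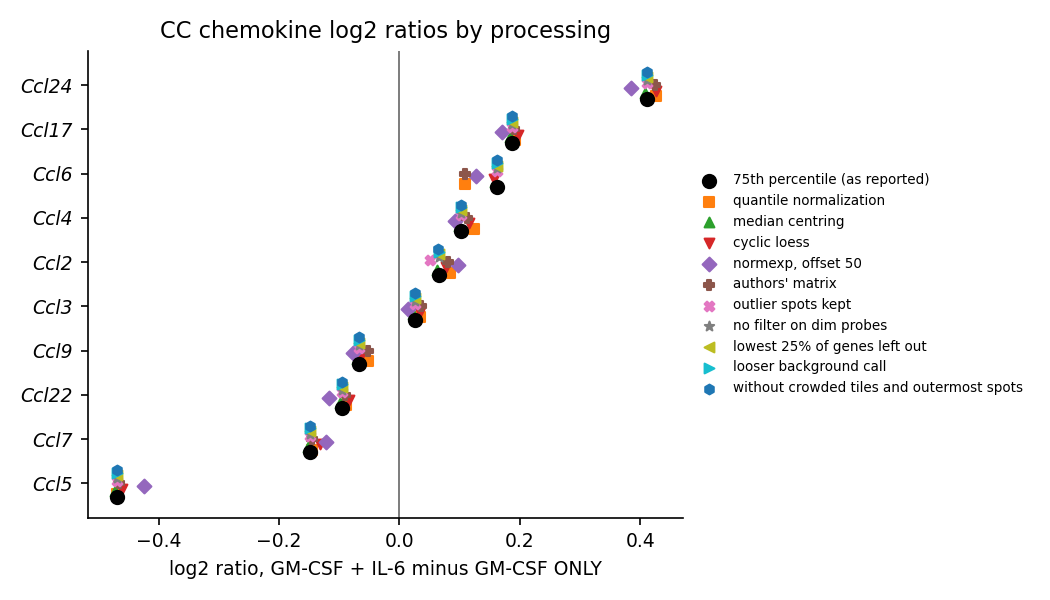
Log2 ratio of each CC chemokine, GM-CSF + IL-6 minus GM-CSF ONLY, under the processing reported (black circles) and 10 alternatives (coloured marks, set slightly apart in height). No mark crosses 0, Ccl5 runs from -0.47 to -0.42, Ccl24 from 0.39 to 0.43 and Ccl6 from 0.11 to 0.16. Alternatives that changed only the filter on dim probes could not move these genes.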

How the data were processed

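Each of 2 cultures was hybridised to 1 Agilent array with 1 channel, and the arrays shared a slide and a scan, per the file headers. The deposited intensities were extracted, per the file headers, by version 10.7.1.1 of Agilent Feature Extraction, and their 75th percentiles were 486.2 with GM-CSF + IL-6 and 549.7 with GM-CSF ONLY. The series matrix deposited by the authors holds log2 values that are quantile-normalized, as their equal distributions show, by software not given in the sources used here.

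The value used was log2 of the processed intensity minus the 75th percentile of the array, which adds 0.18 to each log2 ratio. Outlier spots were dropped and the rest averaged for each probe. A probe was measured where at least 50% of its spots were well above background, which held for 57.9% of probes with GM-CSF + IL-6 and 59.1% with GM-CSF ONLY. A gene took its brightest probe measured on both arrays. Probes were named by RefSeq accession through a table of assembly GRCm38.p6. The technical SD is the SD of spot ratios over 266 probes with at least 5 spots on both arrays, over the root of the spot count. It was taken in 5 brightness bins and interpolated between the bin means. Below the lowest bin mean (53.2) and above the highest (12845) the SD of that bin was held. Precision is limited by the number of arrays. The members and gene lists were chosen with earlier results of these data known. The lists share some genes, so their counts are not separate. Ccr2 and Fn1 are also monocyte markers, Ccr3 and Alox15 eosinophil markers, and Ccr7 a dendritic cell marker. Cxcl10 is also an interferon-stimulated gene. Named genes are all members with every probe, receptors of the members, and up to 4 genes per list with the largest absolute ratios. Ccr8, Ccl25, Cd4, Nkg7 and Cd74 were chosen after their values were seen. A gene of the receptor list and one of the macrophage list are not reported here, nor counted in their lists. The steps were tested on simulated data. Tools were limma 3.58.1 in R 4.3.3 for other normalizations and Python 3.11.15 with pandas 2.3.3, numpy 2.4.6 and matplotlib 3.10.9.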

Additional observations from a re-analysis of the deposited data

How the results depend on the processing

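No paired analysis was possible because the 2 arrays give 1 pair. Under the 11 alternatives run, the counts of CC chemokines at least 1.2-fold higher (1), at least 1.2-fold lower (1) and 2-fold apart (0) did not change, and their median log2 ratio ran from 0.04 to 0.06. Alternatives that changed the filter on dim probes or the choice among probes could not move a member, since each had 1 bright probe. Keeping outlier spots, or leaving out crowded blocks and outermost spots, moved Ccl2 only. The counts of recomputed ratios that follow include such alternatives. Of 100 recomputed log2 ratios of single members, 95 moved by less than the technical SD and 5 by more, none changing sign: Ccl6 to 0.11 with quantile normalization and in the authors' matrix, Ccl2 to 0.08 with quantile normalization and to 0.10 with normexp, and Ccl5 to -0.42 with normexp. The cause was not tested. Of 65 recomputed medians of the other lists, 1 moved by more, with normexp, to -0.04 for the IL-4 and STAT6 genes. Medians near 0 changed sign for the other CC chemokines (0.09 with the median over probes), the eosinophil markers (0.01 with normexp) and the neutrophil markers (-0.01 with normexp). No member lay in the 9 crowded blocks of the array where many unnamed probes differed by 2-fold. The signal of the members was far above background, but 9 of the 10 rest on 1 spot per array.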

Other observations

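Chemokines of the CXC, CX3C and XC classes, which act mainly on neutrophils and lymphocytes, were lower with IL-6 in 8 of 10 measured genes, with a median log2 ratio of -0.12. Of all measured genes 56.2% were lower. Cxcl10, an interferon-induced attractant of T cells, had a scaled signal of 837.5 with GM-CSF + IL-6 and 1197 with GM-CSF ONLY, a log2 ratio of -0.51 ± 0.06. Ppbp, a platelet chemokine gene, had -0.17 ± 0.05, Cxcl1, a neutrophil attractant, -0.13 ± 0.08 and Cxcl5 -0.20 ± 0.20. Cxcl12, Cxcl13, Cxcl14, Cxcl15, Cxcl17 and Xcl1 were not well above background on either array.

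Mast cell and basophil markers, cells that also answer to CC chemokines, were higher with IL-6 in 9 of 10 measured genes, against 43.8% of all measured genes. Their median was 0.17 on the log2 scale, with a summed scaled signal of 99151 with GM-CSF + IL-6 and 91153 with GM-CSF ONLY. Ms4a2, a subunit of the IgE receptor, had 0.28 ± 0.12 and Hdc, the histamine-forming enzyme, -0.21 ± 0.05. The probes of the tryptase gene Tpsb2 had 0.42 and -0.11. The protease genes Mcpt1, Mcpt2 and Cma1 were not well above background on either array.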
